A study of Homo sapiens with 18 samples.

Results

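The genes described here are 10 reported direct targets of the transcription factor RFX7: *PIK3IP1*, *PIK3R3*, *MXD4*, *TOB1*, *PNRC1*, *PDCD4*, *TSPYL1*, *TSPYL2*, *KLHL24* and *ABAT*. They were chosen by name, with earlier results of these data known. All 10 were found among the 26702 genes listed, and each was in all 6 deposited comparisons. The measurements were RNA-seq of polyadenylated RNA from U2OS, a human osteosarcoma cell line. Cells received siControl, siANKRA2 or siRFXANK and then either 10 µM Nutlin-3a or its solvent DMSO for 24 h, which gave 6 groups of 3 samples, 18 in all. The siRFXANK samples were labelled in another form and registered apart from the rest, with no siControl samples of their own. A batch difference and an effect of siRFXANK therefore cannot be told apart in siRFXANK over siControl.

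RFX7 belongs to the regulatory factor X family, whose winged-helix domain binds X-box motifs, often near transcription start sites. It acts downstream of p53, the transcription factor that Nutlin-3a stabilizes by keeping it from its ubiquitin ligase MDM2, and many of its targets restrain growth. RFXANK and ANKRA2 are related ankyrin repeat proteins: RFXANK joins RFX5 and RFXAP in the complex that drives MHC class II genes, and ANKRA2 can bind RFX7. The comparisons address how expression changed with Nutlin-3a and whether it depended on ANKRA2 or RFXANK.

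Promoter sequence is shown first because RFX motifs are the feature that could link these genes to RFX factors. RefSeq windows on GRCh38.p14, each running from 250 bases before to 50 bases after a start, were searched on both strands for the half-site GTTGCC, its variant GTTGCT, and a palindrome of GTTNCC, 2 bases and GGNAAC, which can contain the half-site. The 10 genes had 20 windows. A half-site or variant was present in 5 of the 10 genes, beside 27.1% of all genes in the same table, and in 23.1% of all 35116 windows. GTTGCC was found in *ABAT* and *PIK3R3*, and in 12.2% of all windows. GTTGCT was found in *MXD4*, *PNRC1* and *TSPYL1*, and in 12.8%. The palindrome was found in *ABAT* and in 0.49% of all windows. The windows of *PIK3IP1*, *TOB1*, *PDCD4*, *TSPYL2* and *KLHL24* did not hold these letters. Genes with several starts, such as *PIK3R3* with 6 windows and *ABAT* with 4, had more sequence searched.

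The stretches with a match are given 5′ to 3′ on the strand of the gene, with the matching letters in capitals. None is shown for *PNRC1*, whose match begins at the start itself, in annotated untranslated sequence, rather than before it. The *ABAT* stretch, chr16:8712767-8712826 on the plus strand, lies in an intron of *ABAT* and 70 to 11 bases before the start at 8712837. The *MXD4* stretch, chr4:2262300-2262359 on the minus strand, lies outside annotated genes. The *TSPYL1* stretch, chr6:116280038-116280097 on the minus strand, lies in an exon of *DSE*, a gene on the other strand. The *PIK3R3* stretch, chr1:46133016-46133045 on the minus strand, spans the edge of the first annotated exon.
ABAT: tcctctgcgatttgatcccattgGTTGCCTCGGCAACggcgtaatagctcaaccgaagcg
MXD4: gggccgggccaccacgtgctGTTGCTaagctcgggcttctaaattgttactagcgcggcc
TSPYL1: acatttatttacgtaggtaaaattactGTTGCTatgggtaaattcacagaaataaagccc
PIK3R3: ggctccGGCAACcggcctcagccaatcacc

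**Figure D1:**
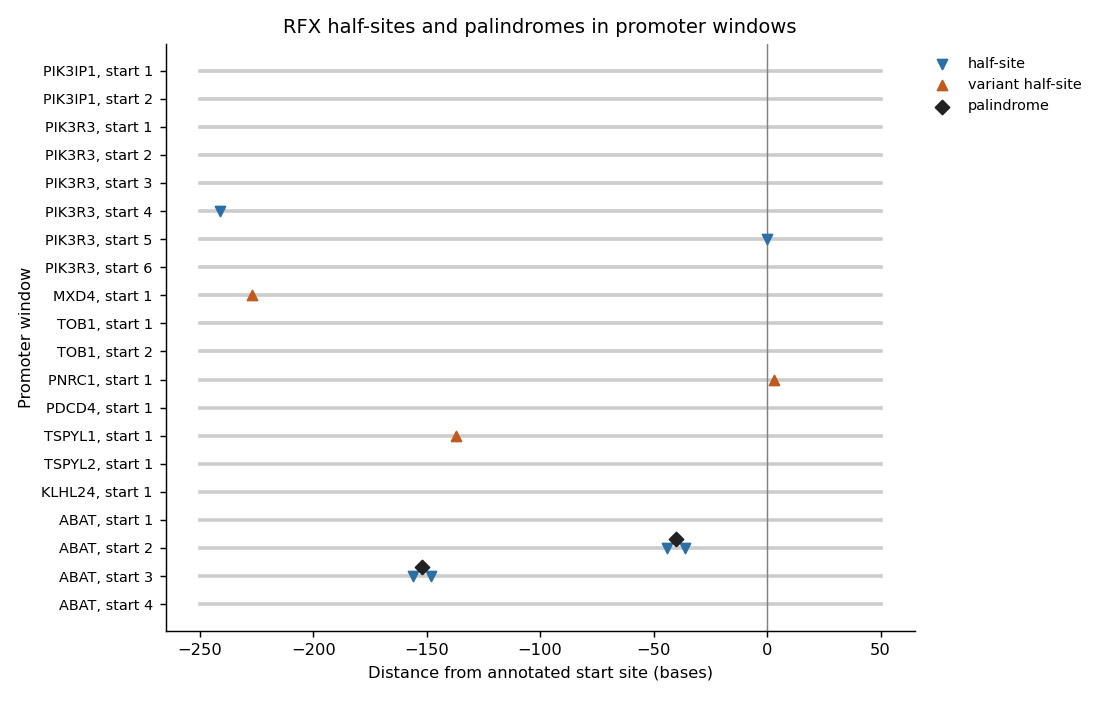
Positions of the half-site, its variant and the palindrome in the 20 promoter windows of the 10 genes, by distance in bases from the annotated start (vertical line), with each window a grey bar from 250 bases before to 50 after it. The *ABAT* palindrome falls in the windows of a pair of its starts, at positions -47 and -159, and 7 of the 20 bars carry a mark.

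The deposited tables gave comparisons and no value per library, so levels are group means recovered from the fold changes and their standard errors. They are in normalized counts, cover 3 samples each and are approximate, whereas ratios between groups are those deposited. The spread between libraries implied for these genes was a coefficient of variation of 3.15% to 7.80%. A gene counts as higher or lower where its adjusted p was under 0.05, by the deposited Wald test or, for 3 comparisons derived from the tables, by a normal test. Library depth is unknown. Of 8 mesenchymal and osteoblast markers 7 were listed, and *VIM*, *COL1A1*, *SPARC*, *CDH2* and *FN1* had deposited means of 759 to 10668 normalized counts per kilobase of exon. *RUNX2* was at 55.5 and *COL1A2* at 2.97. Of the 8 epithelial markers, which the siRFXANK labels would call for, 7 were listed, from 0.716 to 127 per kilobase, with *CLDN4* the highest and *CDH1* at 5.33. Of 4 leukocyte markers, 2 were listed, at no more than 2.68 per kilobase. The marker values are deposited means, and the authors' fit may hold samples other than those described here, which was not tested. For *ANKRA2* the deposited mean was 31568, far above its highest recovered group level of 507. The marker values therefore need not be levels of these U2OS cells. The same limit applies to the cut-off of a deposited mean of 100 used below.

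The siRNA targets were lower after their own siRNA. *ANKRA2* fell by 1.81 on the log2 scale in DMSO (SE 0.18) and by 2.58 in Nutlin-3a (SE 0.12) after siANKRA2. The log2 change of *RFXANK* after siRFXANK was -2.96 in DMSO and -3.16 in Nutlin-3a (SE 0.10 in each). This direction was used to read the tables and is not a result. *RFX7* mRNA also fell after siANKRA2, by 0.61 in DMSO and by 0.79 in Nutlin-3a (SE 0.10 in each). After siRFXANK it fell by 0.46 in DMSO, and its log2 change in Nutlin-3a was 0.01 (adjusted p = 0.95). Each siRNA also went with a change in the target of the other. The log2 change of *RFXANK* after siANKRA2 was -0.37 in DMSO and -0.44 in Nutlin-3a (SE 0.07 in each). That of *ANKRA2* after siRFXANK was 0.73 in DMSO (SE 0.11) and 0.46 in Nutlin-3a (SE 0.06). In siControl cells *ANKRA2* itself rose with Nutlin-3a, by 1.95 on the log2 scale. The part of these changes in the results below was not tested.

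All 10 genes rose with Nutlin-3a in siControl cells, where 21.9% of all 25909 genes tested were higher and 21.2% lower. The median log2 change of the 10 was 1.28, beside 0.02 for all genes. In such bulk samples more expressing cells and more RNA per cell cannot be told apart. *PIK3IP1* had the largest change, 6.24-fold, and *PIK3R3* the smallest, 1.55-fold. In siANKRA2 cells 9 of 10 rose, against a background of 15.5% higher and 17.0% lower, and the median log2 change was 0.47. In siRFXANK cells all 10 rose, against 22.8% higher and 22.5% lower, and the median was 0.87. Where the deposited mean was 100 or more, 32.4% of genes rose in siControl, 21.8% in siANKRA2 and 34.2% in siRFXANK cells.

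**Figure D2:**
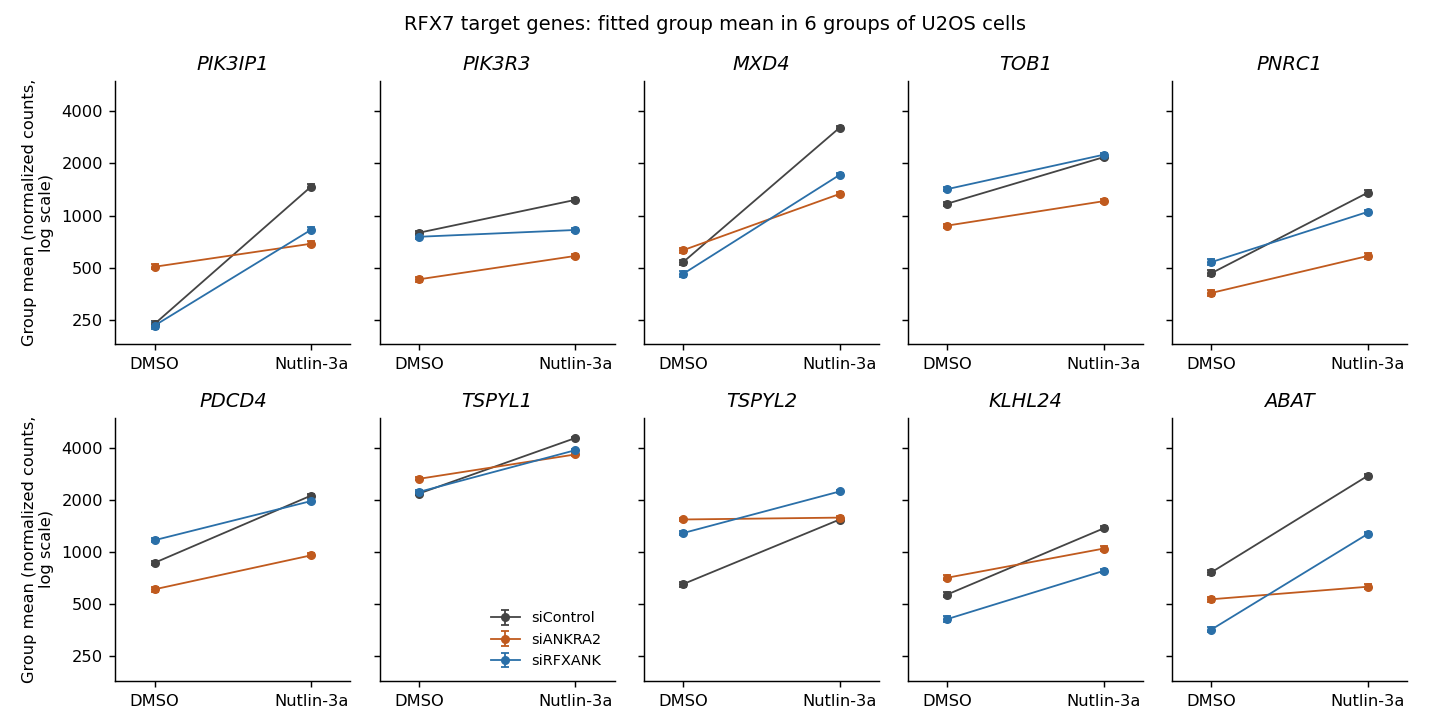
Fitted group mean in normalized counts (log axis) of each RFX7 target gene in DMSO and Nutlin-3a, with siControl in grey, siANKRA2 in orange and siRFXANK in blue, 3 samples a group and bars of 1 SE. The grey line is the steepest in each panel, though nearly parallel to the blue line for *ABAT*, and the orange line of *TSPYL2* is nearly flat.

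*PIK3IP1* encodes a membrane protein that binds and inhibits the catalytic subunit of phosphatidylinositol 3-kinase (PI3K), and lies on the minus strand at chr22:31281593-31292534. Its level in siControl cells was 236 normalized counts in DMSO and 1472 in Nutlin-3a. The corresponding levels were 505 and 687 in siANKRA2 cells, and 231 and 828 in siRFXANK cells. siANKRA2 thus went with a higher level in DMSO and a lower one in Nutlin-3a, while siRFXANK matched siControl closely in DMSO and lay below it in Nutlin-3a. The siANKRA2 effect was 2.14-fold up in DMSO (log2 1.10, SE 0.08, adjusted p = 2e-39) and 2.14-fold down in Nutlin-3a (log2 -1.10, SE 0.06, adjusted p = 1.2e-67). The log2 response to Nutlin-3a was 2.64 with siControl and 0.44 with siANKRA2, a difference of -2.20 (SE 0.10), the largest among the 10 genes. After siRFXANK the response was 1.84, lower by 0.80 (SE 0.11). The siRFXANK effect in DMSO was -0.03, with a 95% interval from -0.21 to 0.15.

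*PIK3R3*, at chr1:46040140-46133036 on the minus strand, encodes a regulatory subunit of PI3K. Its levels in DMSO and Nutlin-3a were 794 and 1232 in siControl cells, 427 and 584 in siANKRA2 cells, and 753 and 825 in siRFXANK cells. The siANKRA2 cells were low in both treatments, whereas the siRFXANK cells were lower in Nutlin-3a only by the deposited test. After siANKRA2 the log2 change was -0.90 in DMSO and -1.08 in Nutlin-3a (SE 0.06 in each), and the difference between the responses of 0.63 and 0.45 did not pass the test (-0.18, 95% interval -0.35 to -0.02, adjusted p = 0.11). After siRFXANK the response was 0.13 (SE 0.06, adjusted p = 0.048), lower than in siControl cells by 0.50 (SE 0.08). *PIK3R3* was thus the gene of the 10 with the weakest response in siRFXANK cells. Of its exon bases 17.4% overlap those of AL358075.4 on the same strand, so reads may be shared between them.

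The list of other PI3K and AKT genes gave a mixed picture. Of 9 genes, 2 rose and 1 fell with Nutlin-3a in siControl cells, led by *PIK3CD*, a catalytic subunit, at a log2 change of 1.24. In Nutlin-3a 3 were higher and 3 lower after siANKRA2 (median log2 change -0.12), with *PIK3CA*, a catalytic subunit, at 0.73 and *PIK3R1*, a regulatory subunit, at -1.17. After siRFXANK 3 were higher and 2 lower (median -0.03). Such a mix was also seen over all genes, the background for this list and those below. With Nutlin-3a in siControl cells 21.9% of all genes were higher and 21.2% lower. In Nutlin-3a 24.6% were higher and 25.5% lower after siANKRA2, and 19.8% and 19.6% after siRFXANK. With a deposited mean of 100 or more those shares in Nutlin-3a were 38.5% and 39.6%, and 32.1% and 30.6%.

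*MXD4* encodes a partner of MAX that represses targets of MYC, and lies on the minus strand at chr4:2247432-2262294. Its level rose from 536 to 3219 in siControl cells, a 6.01-fold change. The same pair of levels was 629 and 1333 in siANKRA2 cells, and 459 and 1717 in siRFXANK cells. In Nutlin-3a siControl cells lay well above both knockdowns, whereas in DMSO they lay between them. In DMSO the siANKRA2 log2 effect was 0.23 (SE 0.07, adjusted p = 0.0039) and the siRFXANK effect -0.22 (SE 0.08, adjusted p = 0.0085). In Nutlin-3a they were -1.27 (SE 0.06) and -0.91 (SE 0.06). The log2 response of 2.59 was lower by 1.50 after siANKRA2 and by 0.68 after siRFXANK, with SE 0.10 for each difference. The variant half-site shown above begins at position -230 from the RefSeq start at 2262109, which lies inside the gene span given here.

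Other MYC and MAX network genes did not share one direction. Of 8 genes, 4 rose and 1 fell with Nutlin-3a in siControl cells, with *MXD1* at a log2 change of 1.57 and *MXD3* at -2.45. Both are MAX partners of the same family as *MXD4*. In Nutlin-3a 4 were higher and 2 lower after siANKRA2 (median 0.20), and 1 was higher and 4 lower after siRFXANK (median -0.16), with *MYC* at -0.87.

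*TOB1*, at chr17:50862223-50867978 on the minus strand, encodes an antiproliferative protein that recruits the CCR4-NOT deadenylase. Its levels in DMSO and Nutlin-3a were 1170 and 2177 in siControl cells, 874 and 1211 in siANKRA2 cells, and 1421 and 2249 in siRFXANK cells. The siANKRA2 cells lay lowest in both treatments, and the siRFXANK cells lay above siControl in DMSO and beside it in Nutlin-3a. The siANKRA2 effect was -0.42 in DMSO and -0.85 in Nutlin-3a on the log2 scale (SE 0.05 in each). The siRFXANK effect was 0.28 in DMSO (SE 0.05), and 0.05 in Nutlin-3a with a 95% interval of -0.04 to 0.14 (adjusted p = 0.45). Its response of 0.90 was lower by 0.43 after siANKRA2 (SE 0.07) and by 0.23 after siRFXANK (SE 0.07, adjusted p = 0.0043). Of 11 other TOB, BTG and CCR4-NOT genes, 4 rose and 5 fell in siControl cells, and *BTG2*, itself a p53 target, had the largest rise at 2.79. After siANKRA2 in Nutlin-3a 4 were higher and 4 lower (median -0.01), and after siRFXANK 5 and 4 (median 0.08). *TOB1-AS1* on the opposite strand overlaps 11.1% of the exon bases of *TOB1*.

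*PNRC1*, a proline-rich nuclear receptor coactivator, lies on the plus strand at chr6:89080751-89085160. Levels in DMSO and Nutlin-3a were 463 and 1358 in siControl cells, 356 and 584 in siANKRA2 cells, and 537 and 1050 in siRFXANK cells. All 3 kinds of cells had more *PNRC1* in Nutlin-3a, and siControl cells reached the highest level. The effect of siANKRA2 was -0.38 in DMSO (SE 0.08) and -1.22 in Nutlin-3a (SE 0.07). The effect of siRFXANK was 0.21 in DMSO (SE 0.07, adjusted p = 0.0092) and -0.37 in Nutlin-3a (SE 0.06). The log2 response of 1.55 was lower by 0.84 after siANKRA2 (SE 0.10) and by 0.58 after siRFXANK (SE 0.09). Among *PNRC2*, its paralog, and 3 mRNA decapping and decay genes, 3 of 4 fell with Nutlin-3a in siControl cells, with *DCP2* at -0.34. In Nutlin-3a 2 were higher and 1 lower after siANKRA2 (median 0.23), and likewise after siRFXANK (median 0.21).

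*PDCD4* encodes an inhibitor of the translation initiation helicase eIF4A, and lies on the plus strand at chr10:110871795-110900006. Its level rose from 869 to 2128 in siControl cells, from 610 to 960 in siANKRA2 cells and from 1173 to 1978 in siRFXANK cells. The siANKRA2 cells were lowest in both treatments and the siRFXANK cells highest in DMSO. On the log2 scale the siANKRA2 effect was -0.51 in DMSO and -1.15 in Nutlin-3a (SE 0.06 in each). The siRFXANK effect was 0.43 in DMSO (SE 0.06) and -0.11 in Nutlin-3a (SE 0.05, adjusted p = 0.098). The response of 1.29 was lower by 0.64 after siANKRA2 and by 0.54 after siRFXANK (SE 0.08 for each). Of 6 translation initiation genes, 2 rose and 4 fell in siControl cells, with *EIF4A1* at 0.46 and *EIF4EBP1*, an eIF4E-binding repressor, at -0.56. In Nutlin-3a 3 were higher and 2 lower after siANKRA2 (median 0.16), and 2 higher and 1 lower after siRFXANK (median 0.04). *BBIP1* on the opposite strand overlaps 28.1% of the exon bases of *PDCD4*. The use of strand in counting is not given in the sources used here, so reads of such pairs may not be told apart.

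*TSPYL1* and *TSPYL2* belong to the TSPY-like family, related to nucleosome assembly proteins. *TSPYL1*, at chr6:116276578-116279903 on the minus strand, was the most abundant of the 10 genes per kilobase of exon in every group, at 656 to 1377 normalized counts per kilobase. Its levels in DMSO and Nutlin-3a were 2183 and 4579 in siControl cells, 2657 and 3680 in siANKRA2 cells, and 2231 and 3895 in siRFXANK cells. The order of the knockdown and siControl cells turned between treatments, with siControl lowest in DMSO and highest in Nutlin-3a, although the difference between siRFXANK and siControl in DMSO did not pass the test (log2 0.03, 95% interval -0.05 to 0.11). The siANKRA2 effect was 0.28 in DMSO and -0.32 in Nutlin-3a, and the siRFXANK effect in Nutlin-3a was -0.23 (SE 0.04 in each). These were small changes beside those of *MXD4* or *ABAT*. *DSE* on the opposite strand overlaps 17.7% of its exon bases.

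*TSPYL2*, at chrX:53082367-53088540 on the plus strand, was the gene of the 10 that passed the test as lower after neither knockdown in Nutlin-3a. Its level in siControl cells was 653 in DMSO and 1545 in Nutlin-3a, in siANKRA2 cells 1547 and 1586, and in siRFXANK cells 1290 and 2246. siANKRA2 cells thus held in DMSO about the level that siControl cells had in Nutlin-3a. The siANKRA2 effect in DMSO was 2.37-fold up (log2 1.24, SE 0.06), and siRFXANK cells were 1.97-fold above siControl cells (log2 0.98, SE 0.06). In Nutlin-3a the siANKRA2 effect was 0.04 with a 95% interval of -0.07 to 0.14 (adjusted p = 0.60), and the siRFXANK effect was 0.54 (SE 0.05). The response in siANKRA2 cells was 0.04 (95% interval -0.07 to 0.14, adjusted p = 0.68), lower than that in siControl cells by 1.21 (SE 0.08). Of 6 other TSPY-like and NAP family genes 5 were measured, of which 1 rose, *TSPYL4* at 0.53, and 3 fell, led by the histone chaperone *SET* at -0.53, in siControl cells. After siANKRA2 in DMSO all 5 fell, with *NAP1L1* at -1.09, where 24.5% of all genes were lower. In Nutlin-3a 3 were lower after siANKRA2 (median -0.45). After siRFXANK in Nutlin-3a 1 was higher and 3 lower (median -0.18).

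*KLHL24* encodes a substrate adaptor of the cullin-3 ubiquitin ligase, and lies on the plus strand at chr3:183635568-183684477. Levels in DMSO and Nutlin-3a were 569 and 1375 in siControl cells, 712 and 1050 in siANKRA2 cells, and 410 and 780 in siRFXANK cells. The siRFXANK cells were lowest in both treatments, while siANKRA2 cells were highest in DMSO and intermediate in Nutlin-3a. The siRFXANK effect was -0.47 in DMSO (SE 0.07) and -0.82 in Nutlin-3a (SE 0.06). The siANKRA2 effect was 0.32 in DMSO (SE 0.07) and -0.39 in Nutlin-3a (SE 0.06). The response of 1.27 was lower by 0.71 after siANKRA2 and by 0.34 after siRFXANK (SE 0.09 for each).

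*ABAT*, at chr16:8674565-8784575 on the plus strand, encodes 4-aminobutyrate aminotransferase, the mitochondrial enzyme that breaks down GABA. With siControl its level was 764 in DMSO and 2772 in Nutlin-3a, with siANKRA2 534 and 631, and with siRFXANK 357 and 1278. siANKRA2 cells kept nearly the same level in both treatments, and siRFXANK cells stayed below siControl cells by a like ratio in each. The siANKRA2 effect in Nutlin-3a was 4.39-fold down (log2 -2.13, SE 0.06, adjusted p = 2.1e-298), the largest among the 10 genes, beside -0.52 in DMSO (SE 0.06). The response in siANKRA2 cells was 0.24 (SE 0.07, adjusted p = 0.0014), lower than the 1.86 of siControl cells by 1.62 (SE 0.09). *ABAT* was 2.14-fold lower in siRFXANK than in siControl cells in DMSO, and 2.17-fold lower in Nutlin-3a. The siRFXANK response of 1.84 differed from that of siControl cells by -0.02 (95% interval -0.19 to 0.15, adjusted p = 0.93). The palindrome shown above begins at position -47 from one of its starts. Of the GABA shunt genes, *GAD1*, which makes GABA, rose in siControl cells at 1.48 (SE 0.50), 1 of 2 risers among 3 measured. In Nutlin-3a 1 of 3 was lower after siANKRA2, *ALDH5A1*, the next enzyme of the shunt, at -1.28 (list median 0.08), and it was the 1 called after siRFXANK, higher by 0.16 (list median 0.68).

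**Figure D3:**
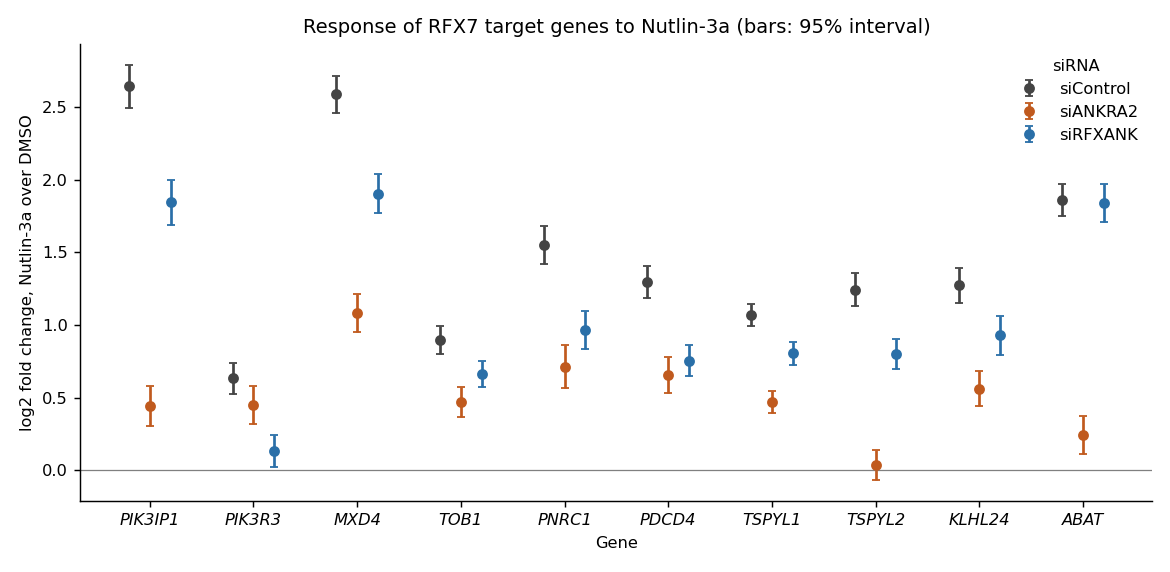
log2 fold change of Nutlin-3a over DMSO (vertical axis) for each RFX7 target gene in siControl (grey), siANKRA2 (orange) and siRFXANK cells (blue, derived from the deposited comparisons), with bars of the 95% interval. *PIK3IP1* drops from 2.64 to 0.44 and *ABAT* from 1.86 to 0.24 after siANKRA2, whereas the siRFXANK point of *ABAT*, 1.84, lies beside the siControl point.

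In 4 of the 10 genes, *PIK3IP1*, *MXD4*, *TSPYL1* and *KLHL24*, the siANKRA2 effect turned from higher in DMSO to lower in Nutlin-3a. Another 5, *PDCD4*, *PIK3R3*, *PNRC1*, *TOB1* and *ABAT*, were lower in both treatments. Of the 10, 5 were higher and 5 lower in DMSO, against a background of 24.3% higher and 24.5% lower, and the median log2 change was -0.07. The 5 higher genes were *PIK3IP1*, *MXD4*, *TSPYL1*, *TSPYL2* and *KLHL24*. In Nutlin-3a 9 of 10 were lower, all but *TSPYL2*, where 24.6% of all genes were higher and 25.5% lower. The median log2 change was -1.09, beside -0.01 for all genes. Among the 13103 genes whose deposited mean was 100 normalized counts or more, as it was for all 10, 39.6% were lower. In DMSO 37.7% of these genes were higher and 39.2% lower.

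After siRFXANK in DMSO 4 of 10 were higher and 3 lower, against 20.9% higher and 21.2% lower among all genes, with a median of -0.00. *TSPYL2*, *PDCD4*, *TOB1* and *PNRC1* were higher, and *ABAT*, *KLHL24* and *MXD4* lower. In Nutlin-3a 7 were lower and 1, *TSPYL2*, higher, against 19.6% lower and 19.8% higher. The 7 were *ABAT*, *MXD4*, *PIK3IP1*, *KLHL24*, *PIK3R3*, *PNRC1* and *TSPYL1*, and the median of the 10 was -0.47. Among genes with a deposited mean of 100 or more, 34.0% were higher and 35.4% lower in DMSO. In Nutlin-3a 30.6% of such genes were lower and 32.1% higher. Both knockdowns are set against the same siControl samples, so their values are given side by side and were not counted together.

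**Figure D4:**
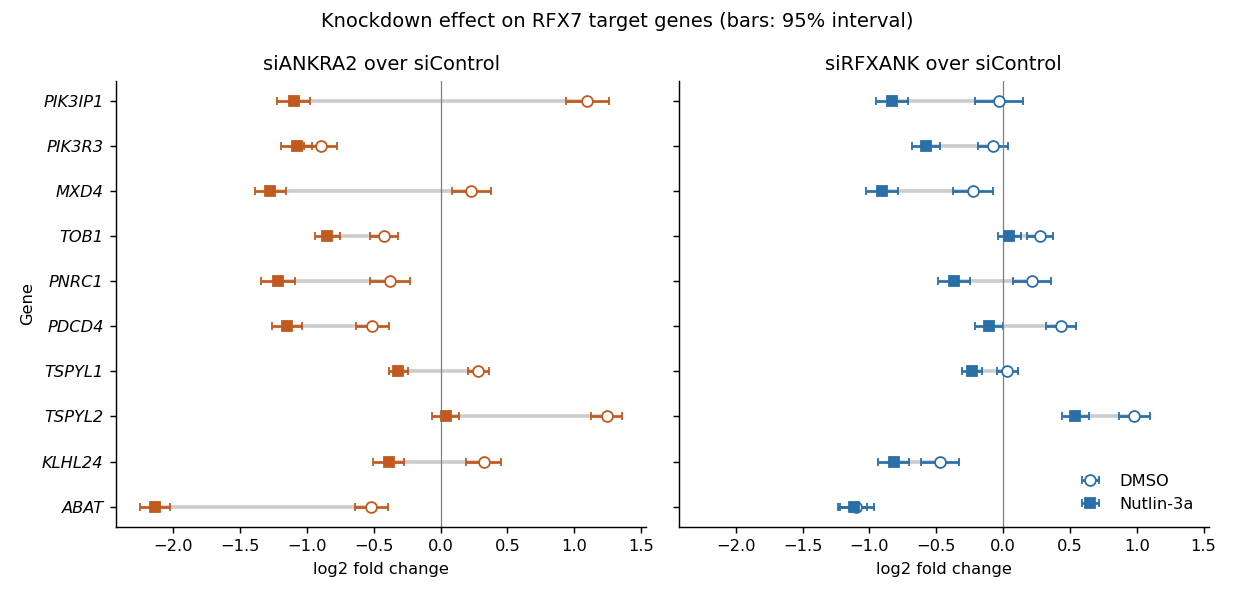
log2 fold change of siANKRA2 (left) and siRFXANK (right) over siControl for each RFX7 target gene, in DMSO (open circles) and Nutlin-3a (filled squares), with bars of the 95% interval. After siANKRA2 the squares of 9 genes lie left of 0 while 5 circles lie right of it, and after siRFXANK the circle and square of *ABAT* nearly coincide at -1.10 and -1.12.

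The response difference, which is the log2 response of a knockdown minus that of siControl cells, was below 0 and past the threshold in 9 of 10 genes for siANKRA2, all but *PIK3R3*, against a background of 12.5% lower and 11.4% higher. For siRFXANK it was so in 9 of 10, all but *ABAT*, against 9.64% lower and 11.6% higher. The medians were -0.78 and -0.47. Of genes with a deposited mean of 100 or more, 19.1% had a lower response after siANKRA2 and 16.8% after siRFXANK. The siRFXANK difference is free of a batch effect only where that effect was alike in DMSO and Nutlin-3a.

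As a reference, the 10 genes were set beside 686 genes with a deposited mean of 100 or more that rose at least 2-fold in siControl cells. That mean spans all groups and may hold further samples, so genes low in DMSO could pass through their levels in Nutlin-3a or elsewhere. The largest rise among the 686 was that of *LCE1C*, at a log2 change of 8.27. Choosing genes by their siControl response itself favours a smaller response elsewhere. Of the 686 genes, 89.2% had a lower response after siANKRA2 and 42.9% after siRFXANK. The response in siANKRA2 cells as a ratio to that in siControl cells, on the log2 scale, had a median of 0.476 over the 686 genes and of 0.440 over the 10. *TSPYL2*, *ABAT* and *PIK3IP1* had the lowest ratios, 0.029, 0.130 and 0.168, and *PIK3R3* the highest, 0.711. For siRFXANK the medians were 0.848 and 0.713, and the 10 genes ran from 0.207 for *PIK3R3* to 0.991 for *ABAT*. In Nutlin-3a 60.5% of the 686 genes were lower after siANKRA2 and 42.4% after siRFXANK. Smaller responses after siANKRA2 were thus found in most of these 686 genes, a set chosen in part by the response that is compared.

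**Figure D5:**
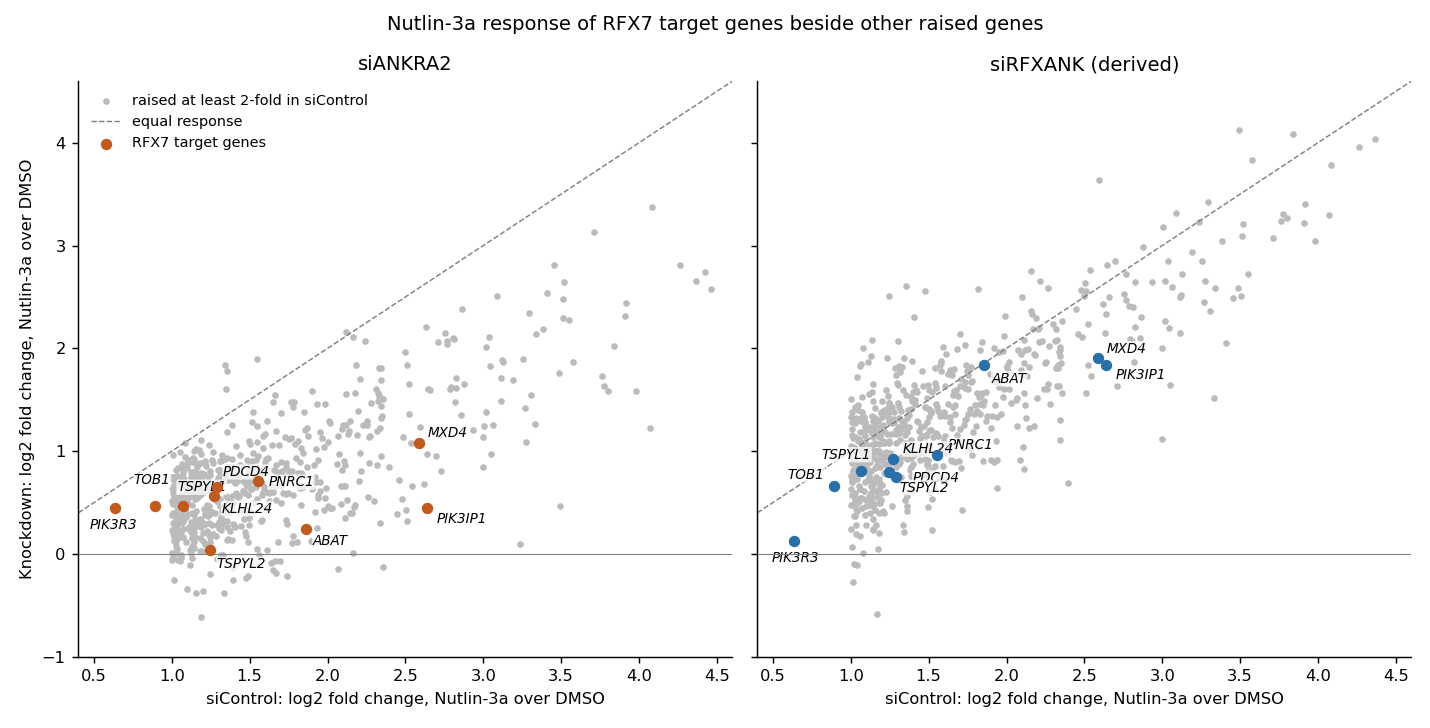
log2 response to Nutlin-3a in siControl cells (horizontal) against that in siANKRA2 (left) and siRFXANK cells (right) for genes raised at least 2-fold (grey, of which 24 of 686 lie outside the axes) and the RFX7 target genes (coloured). Most points on the left lie well under the dashed line of equal response, and *TSPYL2*, *ABAT* and *PIK3IP1* are among the low ones for their position.

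A list of 20 direct p53 targets gives a second reference. All 20 rose with Nutlin-3a in siControl cells (median log2 change 2.01), 19 in siANKRA2 cells (1.14) and 20 in siRFXANK cells (1.65). Of all genes 21.9%, 15.5% and 22.8% rose. In DMSO 12 were higher and 3 lower after siANKRA2 (median 0.46), with *CDKN1A*, the cell cycle inhibitor p21, at 2.04, and 16 were higher and 1 lower after siRFXANK (median 0.42). In Nutlin-3a 6 were higher and 14 lower after siANKRA2, with a median of -0.44 beside -1.09 for the RFX7 targets, and *MDM2* fell by 1.30. After siRFXANK in Nutlin-3a 10 were higher and 5 lower, with a median of 0.12 beside -0.47 for the RFX7 targets. Of all genes, 24.3% were higher and 24.5% lower after siANKRA2 in DMSO, and 20.9% and 21.2% after siRFXANK. In Nutlin-3a these shares were 24.6% and 25.5%, and 19.8% and 19.6%. The difference between the lists was not tested. All 20 p53 targets had a smaller response after siANKRA2 and 17 after siRFXANK, beside 12.5% and 9.64% of all genes. After siRFXANK this went with a higher median in DMSO and no lower median in Nutlin-3a. A batch difference cannot be told apart from a siRFXANK effect on these levels. The activity of p53 was not measured, and its part in the changes of the RFX7 targets was not tested.

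Of the 8 RFX factors and ankyrin partners, 4 rose and 2 fell with Nutlin-3a in siControl cells, with *RFX2* at -0.77. After siANKRA2 7 fell in DMSO, and in Nutlin-3a 7 were lower and 1 higher, *RFXAP* at 0.65 (median -0.57). Both counts of 7 include *ANKRA2*, the siRNA target. Of all genes 24.5% were lower in DMSO and 25.5% in Nutlin-3a. After siRFXANK in Nutlin-3a 4 were higher and 3 lower (median 0.13), beside 19.8% and 19.6% of all genes. The 3 include *RFXANK*, the siRNA target, and *ANKRA2* was higher by 0.46. *DDIT4*, another RFX7 target and an inhibitor of mTORC1, had levels in DMSO and Nutlin-3a of 788 and 4000 in siControl cells. The levels were 709 and 1928 in siANKRA2 cells, and 589 and 2338 in siRFXANK cells. Its response was lower by 0.90 and by 0.36 after the 2 knockdowns. *DDIT4-AS1* on the opposite strand overlaps 41.2% of the exon bases of *DDIT4*, so reads may not be told apart.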

How the data were processed

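RNA-seq of 18 U2OS samples in 6 groups of 3 was analysed from 6 deposited tables, and groups were taken from the sample labels. Per the labels and the submitters' processing notes, the authors used Trimmomatic 0.39, cutadapt 2.10, FastQC 0.11.9, SAMtools 1.10, Picard, featureCounts 1.6.5 and DESeq2 1.20.0 with hg38; the aligner, annotation and use of strand are not given in the sources used here. For each gene the authors deposited 1 mean normalized count, averaged across the fitted samples, which is used here as a signal value. The deposited tables also hold the authors' log2 fold change and its standard error on the log2 scale, a Wald score, and the p-value of that test, raw and after Benjamini-Hochberg adjustment. For ANKRA2 the deposited mean of 31568 lies far above its highest recovered group level of 507, so the authors' fit may hold samples beyond these 18, which was not tested. No value per library was used, so no count model was fitted. The deposited comparisons are the material analysed, and a positive sign was read as knockdown over siControl, the reading in which each siRNA lowers its own target. For siANKRA2 the comparisons closed to 1.39e-14 on the log2 scale. No such check exists for siRFXANK.

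Computed here, with Python 3.11.15, numpy 2.4.6, pandas 2.3.3 and scipy 1.17.1, were both response differences and the siRFXANK response, each by a two-sided normal test with Benjamini-Hochberg adjustment over all genes. Their variances treat group estimates as independent. Group levels were fitted by least squares from the fold changes and standard errors, with 3 samples a group. The steps were tested on simulated data. The threshold was an adjusted p of 0.05. The labels do not state separate cultures, so the spread behind the p-values may be technical. That spread was taken as 1 dispersion per gene, shared by the groups of the authors' fit, rather than that of the samples compared. The genes and lists were chosen with earlier results of these data known. Named were the 10 targets, DDIT4, the siRNA targets, RFX7, CDKN1A, MDM2 and, of each list, the largest rise and fall past the threshold, with cell markers from lists. GENCODE 29 on GRCh38 gave gene positions and exon lengths, and RefSeq gave promoter windows. Alternatives were a threshold of 0.01, a minimum log2 change of 1, a minimum mean of 10, centring on the median gene, another pair of tables for the siANKRA2 response difference, and levels shared out from the deposited mean.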

Additional observations from a re-analysis of the deposited data

Results flagged for a closer look

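The response of 9 RFX7 target genes to Nutlin-3a differed between siANKRA2 and siControl cells by a test of the difference itself. On the log2 scale the differences were -2.20 for *PIK3IP1*, -1.62 for *ABAT*, -1.50 for *MXD4*, -1.21 for *TSPYL2*, -0.84 for *PNRC1*, -0.71 for *KLHL24*, -0.64 for *PDCD4*, -0.60 for *TSPYL1* and -0.43 for *TOB1*. Between siRFXANK and siControl cells 9 genes differed, with -0.80 for *PIK3IP1*, -0.68 for *MXD4*, -0.58 for *PNRC1*, -0.54 for *PDCD4*, -0.50 for *PIK3R3*, -0.44 for *TSPYL2*, -0.34 for *KLHL24*, -0.26 for *TSPYL1* and -0.23 for *TOB1*. Each is a smaller response in the knockdown cells, and both sets use the same siControl samples.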

How the results depend on the processing

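No paired analysis was possible because the tables hold comparisons rather than libraries, and for that reason leaving out a replicate, another count model and a filter on raw counts were not run. Neither library depth nor the weight of any 1 library is known. No result reversed. With a threshold of 0.01, 89 of 90 single-gene calls held, and the siRFXANK response of *PIK3R3* (log2 0.13) was lost. Adjusting only over genes whose mean was 10 or more and centring on the median gene gave the same calls. The other pair of comparisons for the siANKRA2 response difference gave the same counts. Both pairs hold the same differences and standard errors, so that outcome was all but fixed in advance and is no check. Requiring an absolute log2 change of at least 1, chosen by size and so leaving fewer calls by construction, left 1 gene higher with Nutlin-3a in siANKRA2 cells and 3 in siRFXANK cells. After siANKRA2 in DMSO it left 2 higher and 0 lower, and after siRFXANK 0 higher and 1 lower in DMSO and 0 higher and 1 lower in Nutlin-3a. Response differences left were 4 for siANKRA2 and 0 for siRFXANK, where 9 were lower at an unadjusted p under 0.05 by the normal test. Sharing out the deposited mean over the groups moved levels to 0.780 to 1.38 times those given, by over 1 SD between libraries in 54 of 60, so levels are approximate while folds do not change.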
